A study of Mus musculus with 15 samples.

Results

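The 36 genes described here are parts of the cell division machinery, taken by name from the 27907 genes of an ovary expression table: 9 genes of DNA replication, 20 of mitosis, 4 G1 cyclins and 3 inhibitors of the cyclin-dependent kinases. No measured value entered the rule, but the 36 genes were chosen with earlier results of these data known. All 36 were found in the table, and all passed the filter on low values (a mean of 2 or more normalized counts in the 15 ovaries), which left 21525 genes to test. The ovaries were compared between HSD17B1-KI and WT females, and the genes were then set against granulosa and luteal genes of the same ovaries.

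In a growing follicle the granulosa cells around the oocyte divide under the control of FSH and estradiol, and the cyclin D2 gene Ccnd2 is known to be needed for their proliferation. After ovulation, the granulosa cells become luteal cells and leave the cell cycle, a step in which the inhibitors p27 (Cdkn1b) and p21 (Cdkn1a) are known to take part. HSD17B1 is the granulosa cell enzyme that converts estrone into estradiol.

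The HSD17B1-KI females (n = 7) were homozygous for the Ser143Ala substitution in the active site of HSD17B1, introduced in the germ line with CRISPR/Cas9 and therefore present in every cell. The WT females (n = 8) came from the same crosses between heterozygous mutants. Both groups were 6 months old and in estrus, none of the labels names a treatment, and each library was made from the ovary of 1 mouse. The whole ovary was sequenced, so that fewer cells of a type and less RNA per cell cannot be told apart, and no transcript can be assigned to a follicle stage.

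The libraries held 26544745 to 72362981 reads assigned to genes. Granulosa and oocyte genes were present in all mice: Amh ranged from 5131 to 17641 normalized counts and Zp3 from 1211 to 2295. The Ser143Ala change leaves the Hsd17b1 transcript in place, so its level does not check the labels, and its mean was 8829 ± 2952 normalized counts in WT (SD, n = 8), beside 11650 ± 4351 in the mutant (SD, n = 7; adjusted p = 0.666 by limma). Oviduct RNA varied between the libraries. WT 1 and WT 8 had the highest score (mean centred log2 value) of 8 oviduct epithelium genes, 4.27 and 4.05, where the other mice ranged from -2.71 to 2.49. They had 203321 and 127890 normalized counts of Ovgp1, the oviduct glycoprotein gene. The widest gap of the score lay lower, between -0.30 and 1.46. HSD17B1-KI 1 (2.49), HSD17B1-KI 3 (1.94), WT 2 (1.56) and WT 7 (1.46) were also above that gap. The genotype results are also given without WT 1 and WT 8.

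Genes of late S phase and mitosis are known to share promoter elements, among them CCAAT boxes, the CHR element and E2F sites. Of the 36 genes, 27 had an entry in the RefSeq promoter table of the build GRCm38.p6. The 250 bases before the RefSeq start of the gene were searched on both strands for the letters CCAAT, for those of the CHR element, TTTGAA, and for those of an E2F site, TTTNNCGC. Gene positions elsewhere in the text are from GENCODE, and the starts can differ. The window of Mcm7 lies wholly inside the GENCODE gene, and several others lie partly inside it, among them those of Ccnb1, Pcna and Cdkn1a. The letters CCAAT were found in 15 of 16 mitosis promoters and 7 of 8 replication promoters, beside 34.5% of all 27025 promoters and 36.3% of those of protein-coding genes. TTTGAA was found in 6 of 16 mitosis promoters and 1 of 8 replication promoters (16.3% of all promoters), and TTTNNCGC in 1 of 16 and 3 of 8, respectively (4.39% of all promoters). A match is a run of letters in this window and was not tested as a binding site.

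Of these windows 5 are printed 5′ to 3′ on the strand of the gene, with each match in capitals. They are Kif11 and Ccnb1 for the mitosis genes that followed the granulosa genes, Mcm6 for replication, and the inhibitors Cdkn1a and Cdkn1b. Mcm6 had the most E2F matches of the replication windows and was not called with the granulosa genes in the fits given below. Mcm2 and Mcm3, the replication genes that were called there, had no E2F match. The windows lie at chr19:37376132-37376381 (+ strand, Kif11), chr13:100786487-100786736 (- strand, Ccnb1), chr1:128359706-128359955 (- strand, Mcm6), chr17:29090729-29090978 (+ strand, Cdkn1a) and chr6:134920151-134920400 (+ strand, Cdkn1b).
Kif11: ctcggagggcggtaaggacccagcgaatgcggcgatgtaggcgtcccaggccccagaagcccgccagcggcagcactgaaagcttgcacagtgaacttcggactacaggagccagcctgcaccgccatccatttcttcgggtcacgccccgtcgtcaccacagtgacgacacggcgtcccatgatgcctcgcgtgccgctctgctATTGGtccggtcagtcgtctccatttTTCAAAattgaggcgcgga
Ccnb1: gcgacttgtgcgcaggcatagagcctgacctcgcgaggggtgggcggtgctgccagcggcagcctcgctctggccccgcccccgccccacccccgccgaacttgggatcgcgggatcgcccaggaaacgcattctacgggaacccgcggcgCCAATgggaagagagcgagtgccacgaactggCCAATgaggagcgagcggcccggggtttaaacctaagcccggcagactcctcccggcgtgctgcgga
Mcm6: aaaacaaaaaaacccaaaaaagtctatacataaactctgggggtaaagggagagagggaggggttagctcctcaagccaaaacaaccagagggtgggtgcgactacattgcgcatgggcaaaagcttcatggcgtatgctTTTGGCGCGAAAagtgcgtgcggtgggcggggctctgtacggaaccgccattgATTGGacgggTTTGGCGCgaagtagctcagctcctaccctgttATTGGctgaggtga
Cdkn1a: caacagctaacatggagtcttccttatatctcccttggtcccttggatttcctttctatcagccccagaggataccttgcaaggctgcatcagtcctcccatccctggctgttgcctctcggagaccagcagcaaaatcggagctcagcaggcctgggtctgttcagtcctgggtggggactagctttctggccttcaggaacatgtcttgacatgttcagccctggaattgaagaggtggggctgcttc
Cdkn1b: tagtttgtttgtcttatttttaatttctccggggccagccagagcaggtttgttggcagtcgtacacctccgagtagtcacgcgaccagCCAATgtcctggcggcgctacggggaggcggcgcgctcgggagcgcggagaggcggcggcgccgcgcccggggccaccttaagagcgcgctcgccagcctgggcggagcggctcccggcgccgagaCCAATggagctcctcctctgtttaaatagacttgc
Kif11, the spindle motor, had 1 CCAAT and 1 CHR match, both on the opposite strand. Ccnb1, cyclin B1, had 2 CCAAT matches and no CHR match. Mcm6, a subunit of the replicative helicase, had 2 CCAAT and 3 E2F matches, of which 2 overlap on opposite strands. No match was present in the Cdkn1a window, and Cdkn1b had 2 CCAAT matches.

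Levels of the genes differed widely. Per kilobase of exon, Cdkn1b had the highest mean of the 36 genes over the 15 mice, 2914 normalized counts per kilobase, followed by the replication clamp gene Pcna (1867), Ccnd2 (1107), the mitotic cyclin gene Ccnb2 (1095) and Mcm6 (1034). The lowest level was that of the cyclin E gene Ccne1, with 87.3. Within the mitosis genes the level per kilobase ranged from 139 for the kinetochore gene Cenpf to 1095 for Ccnb2, and within replication from 203 for Tyms, thymidylate synthase, to 1867 for Pcna.

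None of the 36 genes passed the test between HSD17B1-KI and WT ovaries. In limma-trend 0 of 36 passed an adjusted p of 0.05, beside 46 of 21525 genes (0.214%), of which 45 were higher (0.209%) and 1 lower (0.00465%), and 0 of 36 had an unadjusted p under 0.05, beside 10% of all genes. With array weights, 0 of 36 were called by limma, beside 0.581% of all genes. edgeR and DESeq2 called 0 of 36 each (background 0.232% and 2.3%), and at an unadjusted p under 0.05 edgeR gave 0 and DESeq2 gave 1, Ccnd1 (background 11.7% and 14.4%). Values of the groups overlapped for every one of the 36 genes, whereas 0.325% of all genes had groups that did not overlap. The median log2 fold change was 0.01 over the replication genes, -0.06 over the mitosis genes, -0.12 over the G1 cyclins and -0.25 over the inhibitors, beside -0.02 over all genes tested. Of the 36 estimates 27 were below 0, beside 11876 of 21525 over all genes.

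**Figure D1:**
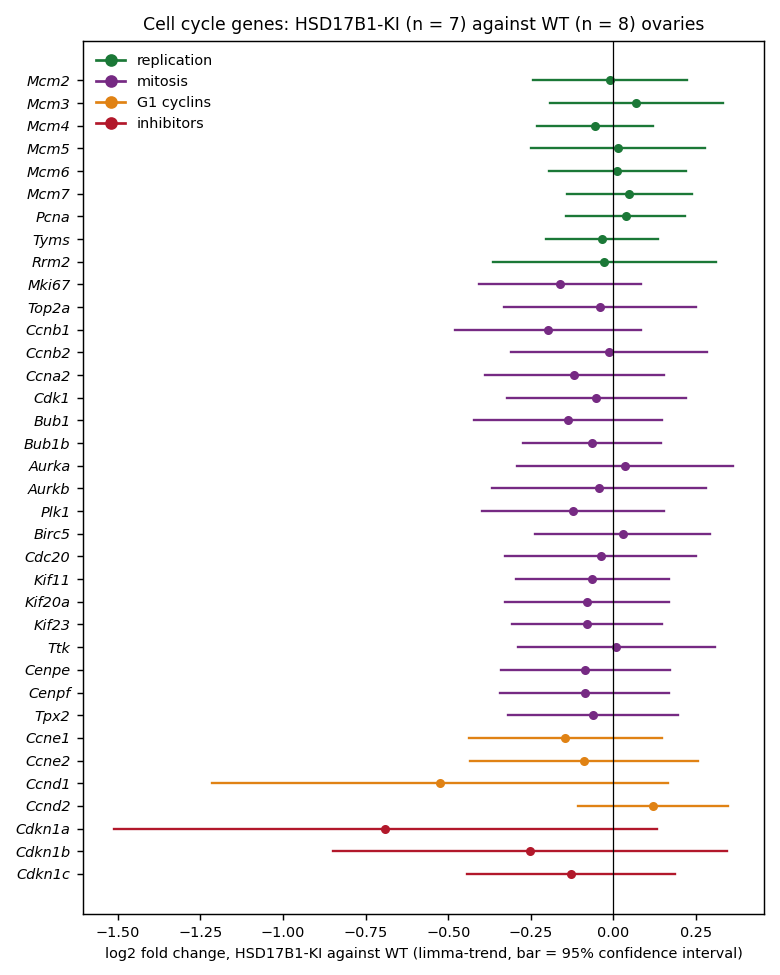
Log2 fold change of each of the 36 genes (points) between HSD17B1-KI (n = 7) and WT (n = 8) ovaries from limma-trend, with its 95% confidence interval (bars), colored by role. Every interval contains 0, and the intervals of Ccnd1 (-1.21 to 0.16) and Cdkn1a (-1.51 to 0.13) are the widest.

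The replication genes lay closest to equality. Mcm2, a subunit of the MCM helicase that unwinds DNA at the fork (chr6:88883474-88898780, mm10), ranged from 2138 to 3339 normalized counts in HSD17B1-KI with a median of 2873, and from 2213 to 3450 in WT with a median of 2810. Its group means were 2804 ± 413 (SD, n = 7) and 2826 ± 428 (SD, n = 8), a log2 fold change of -0.01 ± 0.11 (SE; limma adjusted p = 0.982; exact permutation p = 0.927). Both groups covered nearly the same range, with HSD17B1-KI 4 and WT 8 the lowest of each. Of the helicase genes Mcm3 had the highest log2 fold change of this role, 0.07 ± 0.12 (SE; adjusted p = 0.895), and Mcm4 the lowest, -0.05 ± 0.08 (SE; adjusted p = 0.872). Mcm5, Mcm6, Mcm7, Pcna, Tyms and Rrm2, the ribonucleotide reductase subunit, lay between them. Over the 9 genes the confidence intervals reached from 0.776-fold to 1.26-fold.

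Of the 20 mitosis genes, 17 had a lower estimate in HSD17B1-KI and 3 a higher one, none past the threshold. Mki67, which encodes the proliferation marker Ki-67 (chr7:135689784-135716361), had 5354 to 8331 normalized counts in HSD17B1-KI (median 6713) and 5913 to 9778 in WT (median 7759). The means were 6863 ± 979.8 (SD, n = 7) and 7714 ± 1335 (SD, n = 8). HSD17B1-KI 4 was the lowest mouse and WT 4 the highest, and 2 of 7 HSD17B1-KI mice lay above the WT mean. The log2 fold change was -0.16 ± 0.11 (SE, 95% confidence interval -0.41 to 0.08; limma adjusted p = 0.693; exact permutation p = 0.204).

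Cyclin B1, the partner of CDK1 at entry into mitosis, gave the lowest estimate of this role. Ccnb1 (chr13:100778650-100786570) had 1132 to 1864 normalized counts in HSD17B1-KI (median 1632) and 1303 to 2498 in WT (median 1760), and the means were 1588 ± 229 (SD, n = 7) and 1838 ± 388 (SD, n = 8). The ranges overlapped, and WT 4, WT 6 and WT 7 lay above all HSD17B1-KI mice. The log2 fold change was -0.20 ± 0.13 (SE; limma adjusted p = 0.671; exact permutation p = 0.186). The highest estimate was that of Aurka, the centrosome kinase, at 0.04 ± 0.15 (SE; adjusted p = 0.961). Estimates above 0 were also found for Birc5, the survivin gene of the chromosome passenger complex (0.03), and the checkpoint kinase gene Ttk (0.01). Top2a, which untangles sister chromatids, had means of 7117 ± 943 (SD, n = 7) and 7422 ± 1636 (SD, n = 8).

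Without WT 1 and WT 8, 35 of the 36 estimates were below 0, including 20 of 20 in mitosis and 9 of 9 in replication, beside 51.8% of all genes. The median over the 36 genes was then -0.16, beside -0.01 over all genes. The mitosis genes varied together across the mice, so that their signs are not separate results. 5 of 36 genes, all in mitosis, had an unadjusted limma p under 0.05, beside 8.76% of all genes, and none passed the adjusted threshold (lowest adjusted p = 0.440), beside 0.0418% of all genes. They were Mki67 with a log2 fold change of -0.28 (exact permutation p = 0.0204), Ccnb1 with -0.33 (exact permutation p = 0.0157), Ccna2, the cyclin A gene, with -0.25 (exact permutation p = 0.0385), Kif23, the cytokinesis motor, with -0.19 (exact permutation p = 0.0449) and Cenpf with -0.22 (exact permutation p = 0.0326). Leaving these libraries out removes the WT mice with the lowest mitosis genes, as the values by mouse show, and was chosen after seeing the data. The part of the oviduct RNA in these estimates was not tested beyond a fit with the oviduct score as a covariate, in which 0 of 36 genes were called.

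Among the G1 cyclins, which drive the cell from G1 into S phase, Ccnd2 (chr6:127125162-127152193) had the highest level. It ranged from 9597 to 11752 normalized counts in HSD17B1-KI (median 10979) and from 7276 to 12504 in WT (median 10376), with means of 10808 ± 811 (SD, n = 7) and 10079 ± 1849 (SD, n = 8). All HSD17B1-KI values lay within the WT range, and WT 1 and WT 8 were the lowest mice. Its log2 fold change of 0.12 ± 0.11 (SE; limma adjusted p = 0.757; exact permutation p = 0.310) was the highest of the 36, and it was -0.01 without WT 1 and WT 8.

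Ccnd1 (chr7:144929931-144939925), the cyclin D1 gene, varied more. Its values ran from 856 to 2132 normalized counts in HSD17B1-KI (median 961) and from 868 to 4104 in WT (median 1270). WT 1 and WT 8, the libraries with the highest oviduct scores, had 4104 and 3713, and no other mouse exceeded 2132 (HSD17B1-KI 1). The means of 1179 ± 452 (SD, n = 7) and 1899 ± 1267 (SD, n = 8) gave a log2 fold change of -0.53 ± 0.32 (SE; limma adjusted p = 0.635; exact permutation p = 0.177), which was -0.10 without WT 1 and WT 8. With the oviduct score as a covariate it was -0.30 (limma adjusted p = 0.604). The cyclin E genes Ccne1 and Ccne2 had log2 fold changes of -0.15 and -0.09 (adjusted p = 0.776 and 0.897).

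The 3 inhibitor genes had estimates below 0. Cdkn1a (chr17:29090976-29100727), which encodes p21, gave the lowest log2 fold change of the 36. In HSD17B1-KI it ranged from 413 to 2056 normalized counts with a median of 705, and in WT from 572 to 2647 with a median of 1329. 3 of 7 HSD17B1-KI mice lay below every WT mouse, and HSD17B1-KI 4 and HSD17B1-KI 5 were among the 4 highest of all. The means were 982 ± 673 (SD, n = 7) and 1463 ± 685 (SD, n = 8), a log2 fold change of -0.69 ± 0.39 (SE; limma adjusted p = 0.587; exact permutation p = 0.127). Without HSD17B1-KI 5 it was -0.91 with an exact permutation p of 0.0456, and the limma adjusted p stayed above the threshold.

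Cdkn1b (chr6:134920401-134925513), which encodes p27, ranged from 7052 to 17957 normalized counts in HSD17B1-KI (median 10335) and from 6868 to 23326 in WT (median 14626). The means were 11846 ± 4245 (SD, n = 7) and 14502 ± 6034 (SD, n = 8), and the ranges overlapped, with WT 1, WT 2 and WT 5 above every HSD17B1-KI mouse. The log2 fold change was -0.25 ± 0.28 (SE; limma adjusted p = 0.821; exact permutation p = 0.418). With 1 mouse left out it ran from -0.39 without WT 8 to -0.14 without WT 2 and was not called in any of these fits by limma. With a score of luteal cell genes as a second term, a choice made after seeing the data, it was -0.57 (adjusted p = 0.0246), and Cdkn1b was then the 1 gene called of 36, beside 1.87% of all genes. For Cdkn1c, the p57 gene (chr7:143458339-143461050), the means were 580 ± 70.5 (SD, n = 7) and 651 ± 179.9 (SD, n = 8), with 509 to 723 normalized counts in HSD17B1-KI and 490 to 920 in WT. Its log2 fold change was -0.13 ± 0.15 (SE; limma adjusted p = 0.830; exact permutation p = 0.428).

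**Figure D2:**
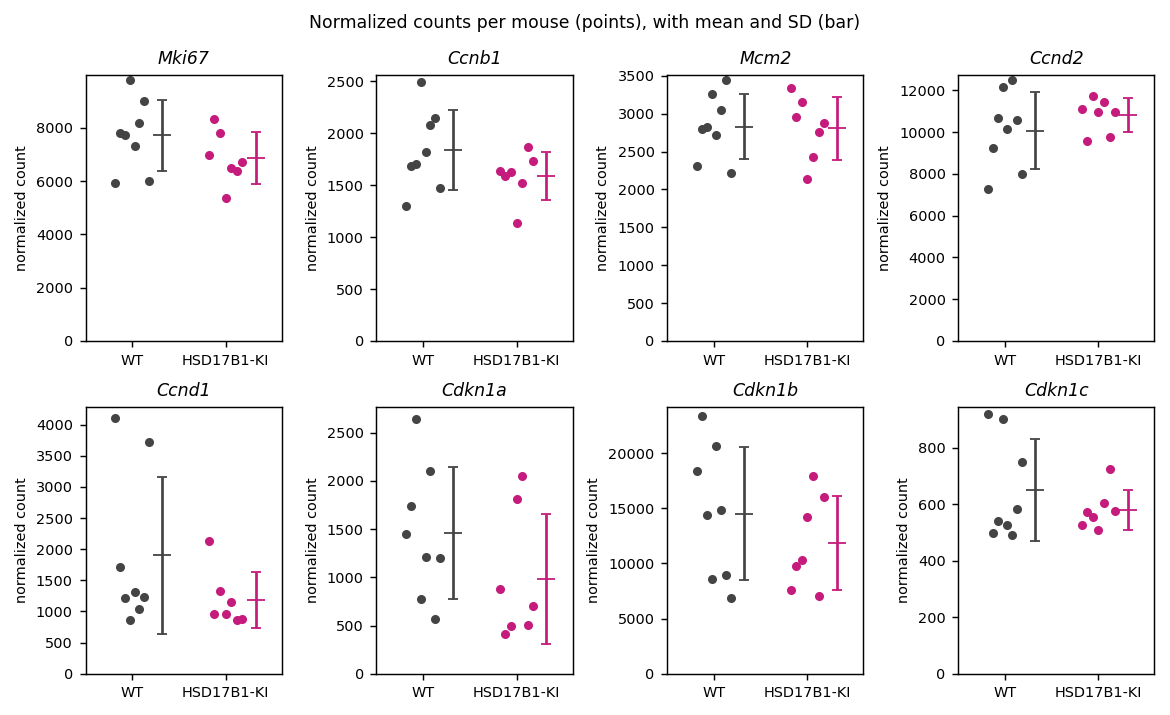
Normalized counts of 8 genes in each mouse (points) by genotype, with the group mean and SD (bars, n = 8 WT and n = 7 HSD17B1-KI). The groups overlap in every panel, and the highest Ccnd1 values, 4104 and 3713, belong to WT 1 and WT 8.

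The other genes of the pathway gave no call either. Of 107 further genes of replication, mitosis and cell cycle control, all above the filter, 0 were called by limma, beside 0.214% of all genes. Only 3 had an unadjusted p under 0.05, a smaller share than the 10% of all genes. These were Rb1, Rbl1 and Tfdp1, of the retinoblastoma and E2F family, with log2 fold changes of -0.20, -0.20 and -0.14. Of 35 further replication genes 26 had estimates above 0, beside 44.8% of all genes. The 35 estimates ran from -0.13 for the primase gene Prim2 to 0.17 for Rpa2, which binds single-stranded DNA. Of 46 further mitosis genes 36 had estimates below 0, beside 11876 of 21525 over all genes. The 46 estimates ran from -0.22 for the centrosome kinase gene Nek2 to 0.21 for the securin gene Pttg1. The 26 regulators reached from -0.24 for Cdk6, the cyclin D dependent kinase gene, to 0.26 for Cdkn2c, an inhibitor of that kinase.

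The mitosis genes varied together from mouse to mouse. Across the 15 mice, with the genotype means removed, the 190 pairs of mitosis genes had a median Pearson r of 0.88 (0.56 to 0.97), and the 36 pairs of replication genes had a median of 0.74. These correlations are a description: all points share the library and its size factor. HSD17B1-KI 4 was among the 3 lowest mice for 20 of 20 mitosis genes, WT 8 for 19 and WT 1 for 18. WT 4 and WT 7 were among the 3 highest mice for 19 of 20 each, and HSD17B1-KI 6 for 9. Averaged over the 20 genes, the centred log2 value was -0.50 in HSD17B1-KI 4, -0.38 in WT 1 and -0.25 in WT 8, and it was 0.36 in WT 4 and 0.34 in WT 7. WT mice stood at both ends of this range, and the HSD17B1-KI mice other than HSD17B1-KI 4 lay between -0.08 and 0.18.

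Not all of the 36 genes shared this pattern. The median r with the mitosis genes was 0.86 for Mcm7, 0.84 for Mcm6 and 0.80 for Ccne2, but 0.41 for Pcna and 0.46 for Tyms. Ccnd2 had 0.58 and Ccne1 0.54. Ccnd1 (-0.56), Cdkn1a (-0.52) and Cdkn1b (-0.39) ran the other way, and Cdkn1c was near 0 (-0.05). For Ccnd1, WT 1 and WT 8 had the highest centred log2 values (1.59 and 1.45, then 0.65 in HSD17B1-KI 1). Both libraries were also low in the mitosis genes, and the r of Ccnd1 without them was not computed. The spread also differed: the SD of log2 values within genotype was 0.82 for Cdkn1a, 0.69 for Ccnd1 and 0.60 for Cdkn1b, but 0.30 for Cdkn1c. The medians were 0.26 over the mitosis genes, 0.20 over the replication genes, 0.29 over the G1 cyclins and 0.33 over all genes. Between the lowest and the highest mouse Cdkn1a differed by 6.41-fold and Mcm4 by 1.41-fold.

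**Figure D3:**
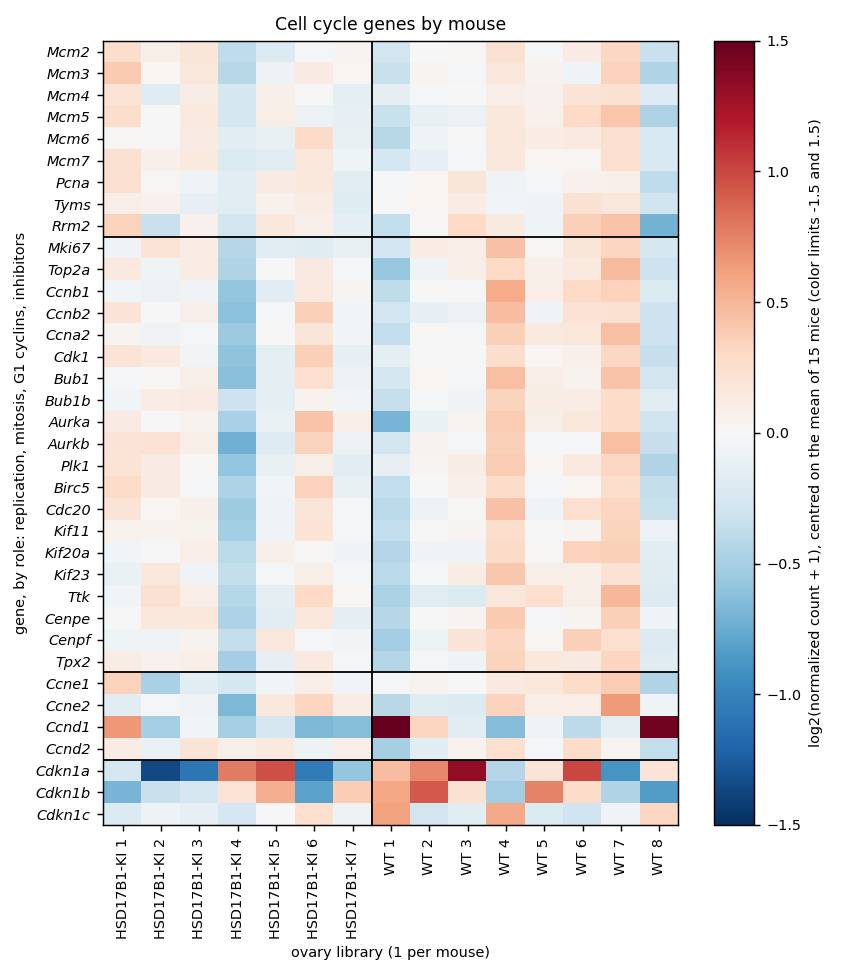
Log2 values of the 36 genes in each of 15 ovaries, centred on the mean of the 15 mice (color scale, limits -1.5 and 1.5), with lines between the roles and between the genotypes. HSD17B1-KI 4, WT 1 and WT 8 are low in nearly all mitosis genes (role means -0.50, -0.38 and -0.25), and WT 4 and WT 7 are high (0.36 and 0.34).

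The relation to granulosa genes was tested with a score, the mean of the centred log2 values of 10 granulosa cell genes (Amh, Amhr2, Inha, Inhba, Inhbb, Fshr, Foxl2, Cyp19a1, Fst and Gja1), as a term beside genotype in limma-trend. The score ranged from -0.81 in HSD17B1-KI 4 to 0.88 in HSD17B1-KI 7, and its group means differed by 0.28 (exact permutation p = 0.344). 8 of 36 genes passed the threshold, 7 higher and 1 lower with a higher score, beside 10.5% of all genes (5.25% higher and 5.28% lower). Among the mitosis genes 5 of 20 were called, all higher: Aurkb, the passenger complex kinase, with a slope of 0.40 ± 0.11 log2 per unit of score (SE; adjusted p = 0.0282), Bub1, the checkpoint kinase, with 0.34 (adjusted p = 0.0366), Ccnb1 with 0.33 (adjusted p = 0.0421), the spindle factor gene Tpx2 with 0.30 (adjusted p = 0.0408) and Kif11 with 0.27 (adjusted p = 0.0412). All 20 mitosis slopes were above 0, from 0.12 for Cenpf, beside 10839 of 21515 over all genes. Of the 20, 18 had an unadjusted p under 0.05, beside 26.2% of all genes. The mitosis genes varied together across the mice (median r 0.88 over their pairs), so that these are not 20 separate results.

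Of the replication genes 2 of 9 were called, Mcm2 with a slope of 0.27 ± 0.08 (SE; adjusted p = 0.0431) and Mcm3 with 0.31 ± 0.09 (SE; adjusted p = 0.0428), and the lowest slope was that of Tyms (-0.02). No G1 cyclin passed: the slopes were 0.35 for Ccne2 (adjusted p = 0.0936), 0.16 for Ccne1, 0.06 for Ccnd2 and -0.14 for Ccnd1. Mki67 had a slope of 0.23 (adjusted p = 0.142). The number of calls rested on single mice. It fell to 0 without HSD17B1-KI 4 (background 3.94%) or without HSD17B1-KI 5 (3.95%) and to 1 without WT 4 (5.4%) or without WT 7 (7.1%), and it rose to 15 without HSD17B1-KI 7 (11.9%). In these fits the share of all genes called fell and rose with it, but not in every fit. Without WT 1 the calls among the cell cycle genes fell from 8 to 6. Those among all 21515 genes then rose from 2264 to 2737. Without WT 6 the cell cycle calls rose to 10 and those among all genes fell to 1450. With no filter on low values 3 genes were called, beside 6.84% of all genes, and with the oviduct score as a covariate 16, beside 10.6%. With array weights, which give less weight to variable libraries, 23 genes were called, beside 22.9% of all genes, with the score as the only term 3, beside 9.56%, and without WT 1 and WT 8 12, beside 16.1%.

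The inhibitor Cdkn1a had the steepest slope of the 36 and the opposite sign, -1.10 ± 0.25 log2 per unit of granulosa score (SE; limma adjusted p = 0.0143). It was called in 13 of 15 fits with 1 mouse left out, and the adjusted p was 0.0637 without HSD17B1-KI 4 and 0.0556 without HSD17B1-KI 5. The 4 mice with the lowest granulosa score, HSD17B1-KI 4, WT 6, WT 3 and HSD17B1-KI 5, had the 4 highest Cdkn1a values, 1818, 2108, 2647 and 2056 normalized counts, and every other mouse was at or below 1739. These 4 mice also had the 4 lowest theca and interstitial scores (-1.21 to -0.88, beside -0.45 or more in the others). Some marker genes of other cell types were also called with the granulosa score, beside 10.5% of all genes. Of 7 theca and interstitial genes Cyp17a1, Gli1 and Hhip were called higher, and of 10 oocyte genes Gdf9 and Bmp15 were. Of 10 luteal genes Star and Parm1 were called lower. The part of these cell types in the slopes was not tested.

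Of the 107 other pathway genes 13 were called with the granulosa score, or 12.1%, near the 10.5% of all genes. 10 of 46 mitosis genes were higher, namely Mad2l1, Espl1, Kif2c, Kif4, Kif15, Kif18b, Ncapg, Ncaph, Cks1b and Troap, with slopes from 0.27 for Mad2l1, a spindle checkpoint gene, to 0.48 for Kif2c, a kinetochore motor. Cdc25a, the phosphatase that activates CDK2, was higher (0.26). Cdkn2d, the p19 inhibitor gene, and Ccng1, a target of p53, were lower, with slopes of -0.49 and -0.36. None of 35 further replication genes was called by limma, and 10 of the 35 had an unadjusted p under 0.05, beside 26.2% of all genes.

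**Figure D4:**
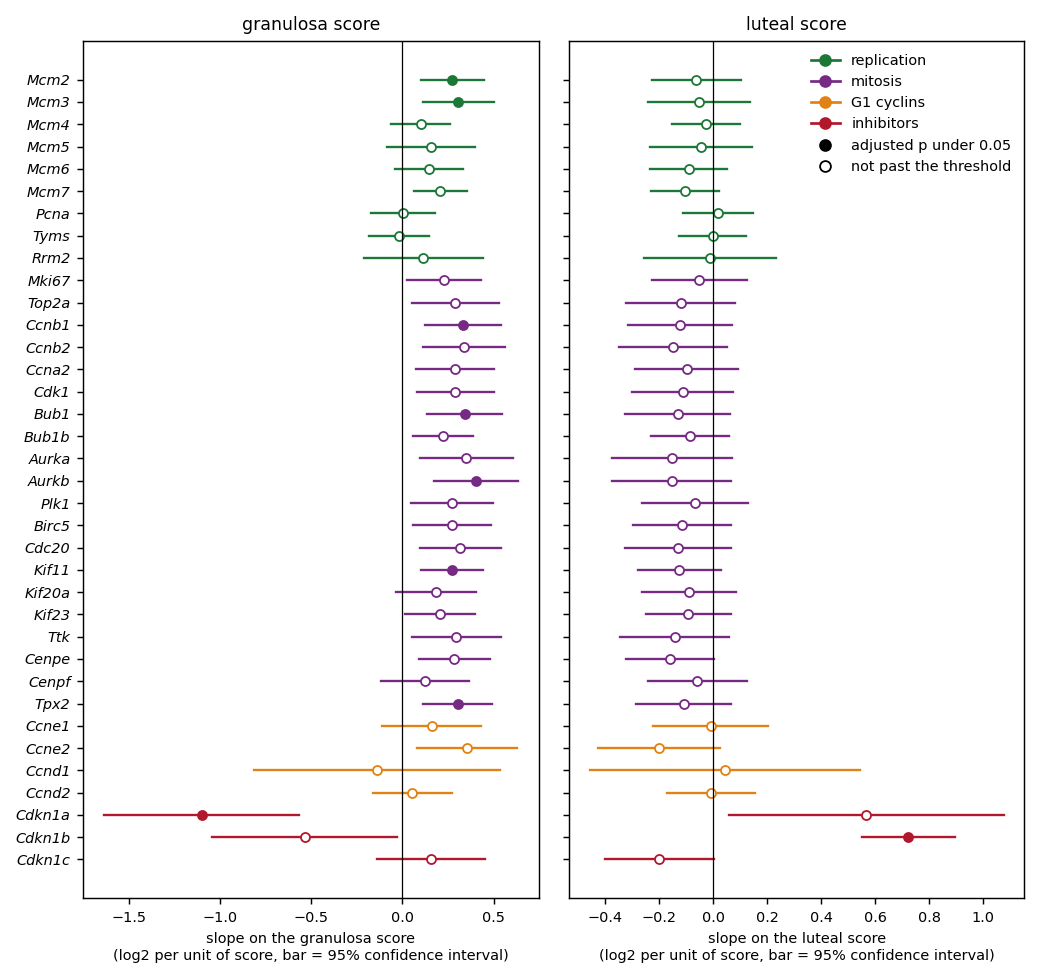
Slope of each of the 36 genes on the granulosa score (left) and on the luteal score (right) across 15 ovaries, in log2 per unit of score with 95% confidence intervals, from limma-trend with genotype as a second term. Filled points passed an adjusted p of 0.05: 8 genes on the left, of which Cdkn1a (-1.10) is the only one below 0, and Cdkn1b (0.72) alone on the right.

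Luteal genes were tested in the same way, with a score over Lhcgr, Ptgfr, Prlr, Akr1c18, Star, Cyp11a1, Hsd3b1, Scarb1, Sfrp4 and Parm1. It ranged from -1.32 in WT 7 to 1.237 in WT 2, and the group means differed by 0.44 (exact permutation p = 0.287). Cdkn1b was the only one of the 36 genes called, beside 1.96% of all genes (1.77% higher and 0.186% lower), and rose with the score by 0.72 ± 0.08 log2 per unit (SE; limma adjusted p = 0.0002). The call held in 15 of 15 fits with 1 mouse left out, without WT 1 and WT 8 (slope 0.67, background 1.28%), with array weights (background 4.91%) and with the score as the only term, where the adjusted p was 0.0459 (background 0.209%). WT 2, with the highest luteal score, had the highest Cdkn1b value, 23326 normalized counts, and the 4 mice with the lowest scores (WT 7, WT 4, WT 8 and HSD17B1-KI 6) had 8954, 8586, 6868 and 7052.

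Pearson's r between Cdkn1b and the luteal score was 0.80 over the 15 mice (permutation p = 0.00034, adjusted over 8 relations 0.00272) and Spearman's rho was 0.80 (permutation p = 0.00063). Within HSD17B1-KI r was 0.88 (n = 7, exact permutation p = 0.00278, adjusted 0.0222) and within WT 0.96 (n = 8, exact permutation p = 0.000347, adjusted 0.00278). Without the 2 mice farthest from the median score, WT 7 and WT 4, r was 0.82. The scores had their widest gap between -0.68 and -0.10, and over the 11 mice above it r was 0.65. With the granulosa score Cdkn1b had an r of -0.53 (permutation p = 0.0428, adjusted over 8 relations 0.114).

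Cdkn1a had a slope of 0.57 on the luteal score (adjusted p = 0.291) and Cdkn1c one of -0.20 (adjusted p = 0.359). All 20 mitosis slopes were below 0, from -0.16 for the kinetochore motor gene Cenpe to -0.05 for Mki67, beside 11544 of 21515 over all genes. Limma called 0 of them, with 0 at an unadjusted p under 0.05, beside 14.1% of all genes. The mitosis genes varied together, so that these signs are not 20 separate results. Of the replication genes 8 of 9 slopes were below 0, from -0.10 for Mcm7 to 0.02 for Pcna, and among the G1 cyclins the slopes ran from -0.20 for Ccne2 to 0.04 for Ccnd1. Of the 107 other pathway genes limma called 0, beside 1.96% of all genes, and 9 had an unadjusted p under 0.05, beside 14.1%. For single genes of the other roles, Mcm2 and the granulosa score had an r of 0.66 over 15 mice (permutation p = 0.00871, adjusted 0.0348; rho 0.60, permutation p = 0.0214, adjusted 0.0856, which did not pass), 0.86 within HSD17B1-KI (n = 7, exact permutation p = 0.0173, adjusted 0.0691; for rho exact p = 0.167) and 0.52 within WT (n = 8, exact permutation p = 0.176), and 0.67 without HSD17B1-KI 7 and WT 4. Mki67 and the granulosa score had an r of 0.40 (permutation p = 0.135; rho 0.34), and Ccnd2 an r of 0.21 (permutation p = 0.463; rho 0.03). With the luteal score r was -0.25 for Mki67, -0.21 for Mcm2 and 0.06 for Ccnd2 (permutation p = 0.367, 0.452 and 0.839).

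**Figure D5:**
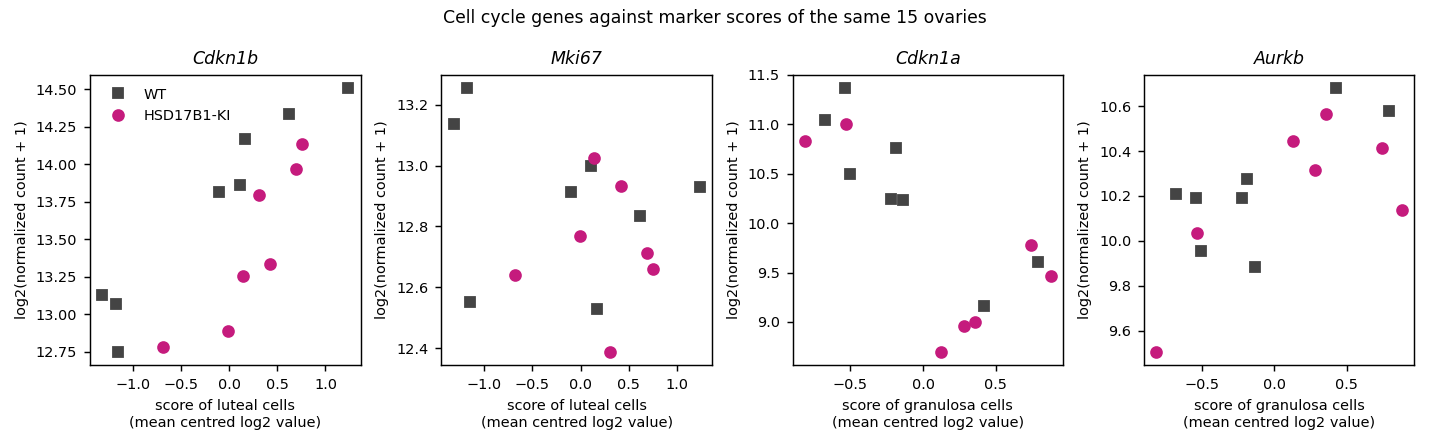
Log2(normalized count + 1) of 4 genes against the luteal or granulosa score of the same ovary, for WT (squares, n = 8) and HSD17B1-KI (circles, n = 7). Cdkn1b rises with the luteal score (r = 0.88 within HSD17B1-KI and 0.96 within WT), and Cdkn1a falls with the granulosa score (slope -1.10).

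The cell type scores were also compared between the genotypes. For none of the 9 marker lists did the exact permutation test of the group means pass 0.05: the p-values ran from 0.193 for theca and interstitial cells to 0.673 for lymphocytes, and each was 0.673 after adjustment over the 9 lists. The oviduct score averaged 0.45 ± 2.84 over the 8 WT mice (SD) and -0.51 ± 1.99 over the 7 mutant mice (SD).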

How the data were processed

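RNA from whole ovaries of 7 HSD17B1-KI and 8 WT mice was sequenced from stranded mRNA libraries. The authors' processing notes name bcl2fastq 2.20 and STAR 2.7.3 and the build mm10; the counting program is not given in the sources used here. The deposited values, unit signal, are gene counts that the authors divided by 1 size factor per library. They came out as whole reads for 100% of values within 0.01 of a read. On the values as deposited, log2(normalized count + 1) was tested with limma-trend (limma 3.58.1, R 4.3.3) over genes with a mean of at least 2, with Benjamini-Hochberg adjustment over all genes, two-sided, threshold 0.05, and fold changes are on that scale, which understates changes of low genes. On the recovered whole reads, edgeR 4.0.16 called 50 genes and DESeq2 1.42.0 called 456 between the genotypes, beside 46 by limma. Single genes were tested with exact permutation tests over all splits of the mice, correlations with 100000 permutations or exactly within a genotype. The design had said that count tests would be run if whole reads could be recovered, as was done.

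Marker scores are means of centred log2 values. The scripts were tested on simulated data. The 36 genes, the gene lists and the tests were chosen with earlier results of these data known. The rule named all 36 genes, with full values for Mki67, Mcm2, Ccnd2, Cdkn1b, genes past the threshold and those with the highest and lowest estimate of each role. Nothing says whether the libraries were prepared in batches. Depth ran from 26544745 to 72362981 reads, at which 1 read was worth 0.647 to 1.70 normalized counts. Exon lengths and positions came from GENCODE M21, promoters from RefSeq (GRCm38.p6). Alternatives covered the pseudocount, filter, scaling, array weights, replicate block, covariates and leaving out each mouse.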

Additional observations from a re-analysis of the deposited data

Results flagged for a closer look

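Of 90 groups of values, 8 held a mouse far from the rest of its group, where chance flags about 1 in 20 groups if the groups are independent. These groups were not, because the mitosis genes varied together across the mice. 5 of the 8 were mitosis genes in which HSD17B1-KI 4 was the lowest HSD17B1-KI mouse, so that they are not 5 separate results. It had 5218 normalized counts of Top2a, 1998 of Ccna2, 1190 of Cdc20, 1603 of Kif11 and 1219 of Kif20a. This mouse also had the lowest granulosa score of all (-0.81). In Ccnd1, HSD17B1-KI 1 was far above the other HSD17B1-KI mice with 2132 normalized counts, and it also had the highest oviduct score of that group (2.49). Among the WT mice, WT 4 stood out in the oocyte score (0.416) and WT 5 in the erythroid score (1.19).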

How the results depend on the processing

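No cell cycle gene was called between the genotypes under any alternative but the luteal score as a covariate (1 gene, Cdkn1b). Over all genes the number of calls ran from 0 with the replicate block to 456 with DESeq2, and from 6 to 139 with 1 mouse left out. The granulosa score called 8 of the 36 genes, and 3 with no filter (background 6.84%), 3 with the score as the only term (9.56%), 16 with the oviduct score as a covariate (10.6%), 23 with array weights (22.9%) and 0 to 15 with 1 mouse left out (3.94% to 12.7%). The luteal score called Cdkn1b alone under every alternative run. Without WT 1 and WT 8, 5 genes had an exact permutation p under 0.05, and with 1 mouse left out 0 to 1. Alternatives that left out WT 1 and WT 8 or used the luteal, granulosa or, for the slopes, oviduct score as a covariate were chosen after seeing the data.

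The labels do not say whether the replicate numbers pair the mice. The correlation of same-numbered deviations ran both ways, from -0.55 to 0.55, and cannot decide this. With the replicate numbers as a block, WT 8 has no partner and drops out of the estimate. In that fit 0 of 36 genes and 0 of all genes were called by limma.

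Estimates near 0 changed sign, none of them past the threshold, and the cause was not tested. The genotype log2 fold changes that did so were Mcm5 -0.0357, Mcm6 -0.0343, Pcna -0.0175, Aurka -0.0312, Birc5 -0.0401 and Ttk -0.0295 with array weights; Mcm5 -0.00275 and Ttk -0.0039 with edgeR; Mcm5 -0.00333 and Ttk -0.00525 with DESeq2; Mcm5 -0.0501, Mcm6 -0.021, Pcna -0.0147, Aurka -0.00367, Birc5 -0.0207 and Ttk -0.0211 with the replicate block. They were Mcm5 -0.00865, Mcm6 -0.0155, Aurka -0.0083 and Ttk -0.0181 with the oviduct score as a covariate, Mcm3 -0.0173, Mcm5 -0.0293, Mcm6 -0.0292, Mcm7 -0.0103, Aurka -0.0621, Birc5 -0.0483 and Ttk -0.0744 with the granulosa score, and Mcm2 0.0163, Top2a 0.0122, Ccnb2 0.0512, Aurkb 0.0225 and Cdc20 0.0177 with the luteal score. With quantile normalization they were Mcm6 -0.000334, Ccnb2 0.00574 and Ccne2 0.0248. Without WT 1 and WT 8 they were Mcm3 -0.0516, Mcm5 -0.116, Mcm6 -0.0955, Mcm7 -0.0261, Pcna -0.0244, Aurka -0.123, Birc5 -0.0872, Ttk -0.104, Ccnd2 -0.00737 and Cdkn1c 0.00403. Slopes on the granulosa score that changed sign were Pcna -0.00554 and Ccnd1 0.0233 without WT 1 and WT 8, Pcna -0.00452 with array weights and Tyms 0.0073 with upper quartile scaling. Slopes on the luteal score that did so were Pcna -0.0366 without WT 1 and WT 8, Tyms 0.00302 and Ccne1 0.0051 with quantile normalization and Ccnd1 -0.064 and Ccnd2 0.0164 with the score as the only term.

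With 1 mouse left out, the genotype log2 fold changes that changed sign ran as follows: Mcm2 -0.0587 to 0.0523, Mcm5 -0.0501 to 0.0754, Mcm6 -0.0481 to 0.0455, Pcna -0.0147 to 0.0699, Rrm2 -0.13 to 0.0322, Top2a -0.125 to 0.0324, Ccnb2 -0.0742 to 0.0884, Cdk1 -0.116 to 0.0448, Aurka -0.0606 to 0.12, Aurkb -0.104 to 0.0724, Birc5 -0.0269 to 0.107, Cdc20 -0.0996 to 0.047, Kif11 -0.12 to 0.0167, Ttk -0.0586 to 0.0806, Tpx2 -0.128 to 0.0168 and Ccne2 -0.154 to 0.0165. For slopes on the granulosa score these were Pcna -0.0696 to 0.0496, Tyms -0.077 to 0.0182, Ccnd1 -0.331 to 0.116 and Ccnd2 -0.0273 to 0.115, and on the luteal score Mcm3 -0.132 to 0.0133, Mcm4 -0.0663 to 0.0094, Mcm5 -0.126 to 0.035, Pcna -0.0387 to 0.045, Tyms -0.054 to 0.0301, Rrm2 -0.133 to 0.0738, Mki67 -0.116 to 0.00335, Ccne1 -0.0985 to 0.0545, Ccnd1 -0.105 to 0.251 and Ccnd2 -0.0617 to 0.0422. Among the marker lists the genotype differences ran as follows: endothelium -0.000399 to 0.0762, macrophages -0.00772 to 0.145, lymphocytes -0.00161 to 0.118 and erythroid cells 0.0932 to 0.347, of which the erythroid difference passed an exact permutation p of 0.05 without WT 5. Without WT 1 and WT 8 the oviduct and endothelium differences turned to 0.274 and -0.0391.

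Of the correlations, Mki67 with the luteal score turned to 0.0246 within HSD17B1-KI and 0.294 without the 2 mice farthest from the median, Mcm2 with the luteal score to 0.197 without those mice, Ccnd2 with the luteal score to -0.15 within WT and -0.23 without WT 1 and WT 8, and Ccnd2 with the granulosa score to -0.112 within HSD17B1-KI. For Mcm2 with the granulosa score within WT, r was 0.521 and the unadjusted exact permutation p was 0.176. For Cdkn1b with the granulosa score, r was -0.455 within HSD17B1-KI (exact permutation p = 0.302) and -0.571 within WT (exact permutation p = 0.144). This Cdkn1b relation did not pass after adjustment over all mice either.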

Other observations

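The genotype difference of Cdkn1b was also fitted with the luteal score as a second term. This fit was chosen after the gene had been seen against the score in the same 15 mice, so that its p-values and its repeats with 1 mouse left out restate that pattern and are no independent support for it. Cdkn1b was then lower in HSD17B1-KI by a log2 difference of -0.57 ± 0.12 (SE; limma adjusted p = 0.0246), and it was the only one of the 36 genes called, where 1.87% of 21525 genes were called. The difference was -0.56 without WT 1 and WT 8 (adjusted p = 0.0481). With each mouse left out in turn it ran from -0.65 to -0.50 and was called in 10 of 15 fits, with adjusted p from 0.0132 to 0.0649, the 5 lost being those without HSD17B1-KI 2, HSD17B1-KI 3, HSD17B1-KI 6, WT 1 and WT 5.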
